A study of Ovis aries with 15 samples.

Results

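The endothelial genes of the sheep kidney described here are PECAM1, CDH5, ESAM, EMCN, KDR, FLT1, TEK, TIE1 and ERG. These 9 genes were chosen by name as markers of the cells that line blood vessels, and all 9 were found among the 25592 genes of the expression table. The libraries came from the kidneys of male Dorper × Small-tailed Han sheep aged 4 months, which were fed for 21 days in 3 groups. The CON group was given the basal feed. Aflatoxin B1, a mould toxin, was added at 500 µg per kg of dry matter for the AFB1 group. The AFB1_CUR feed held this dose of AFB1 and also curcumin at 800 mg per kg. Each group had 6 sheep and 5 sequenced libraries, and the comparisons ask whether AFB1 changed the endothelial genes and whether curcumin changed them in sheep given AFB1.

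The kidney is among the most densely vascularised organs, with a fenestrated endothelium in the glomerulus and around the tubules. Endothelial cells are held together by junction proteins, among them PECAM1, CDH5 (VE-cadherin) and ESAM, and carry the sialomucin EMCN (endomucin) on the luminal surface. VEGFA made by podocytes and tubule cells acts on the endothelium through the receptor KDR, while FLT1 binds the same ligand and limits its action. TEK is the receptor of the angiopoietins, TIE1 is its partner receptor, and ERG is an ETS transcription factor that maintains the expression of endothelial genes.

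The libraries held 50255295 to 68747047 counted reads (median 56549141). The library labelled AFB1 replicate 1 stood apart from the others. Its mean level of 19 hepatocyte markers, on the log2(FPKM + 1) scale, was 10.63 against 1.805 to 3.063 in the other 14 libraries. Its proximal tubule level over 8 markers was 1.586 against 6.469 to 8.236, and the podocyte gene NPHS1 and the tubule genes KCNJ1 and SCNN1G were at 0 in it. The labelled tissue is kidney, so its values are shown apart, and the comparisons of the 9 genes are given without it (14 libraries) and with it (15 libraries). FPKM scales the fragments of a gene by transcript length and library size. Levels of different genes can be set side by side only as far as the transcript lengths used hold. In whole tissue, fewer endothelial cells and less RNA per endothelial cell cannot be told apart.

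The 9 genes were expressed in every kidney library, and the member with the fewest reads still had 1318 counts in its lowest library of the 14. PECAM1 stood first in the CON group with 56.2 ± 8.91 FPKM (SD, n = 5), above 93.1% of the tested genes. FLT1 stood last with 4.01 ± 0.545 FPKM, above 36.9% of them. Between these, the CON means were 27.5 ± 4.45 FPKM for ESAM, 26.1 ± 4.11 for KDR, 21.3 ± 4.42 for TEK, 18.9 ± 2.34 for CDH5, 10.9 ± 2.30 for TIE1, 9.25 ± 1.24 for EMCN and 7.12 ± 0.938 for ERG. Among neighbours in this order, the ranges of the 5 CON libraries were separate for PECAM1 and ESAM, for CDH5 and TIE1, and for ERG and FLT1. The other neighbours overlapped. PECAM1 was above ESAM, CDH5 above TIE1, EMCN above ERG and ERG above FLT1 in 14 of 14 kidney libraries, whereas ESAM was above KDR in 10 of 14. This order is one of FPKM and rests on the transcript length behind it. By reads FLT1 was not the lowest, with 6400 in CON replicate 1 against 3950 for TIE1 and 1993 for ERG.

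**Figure D1:**
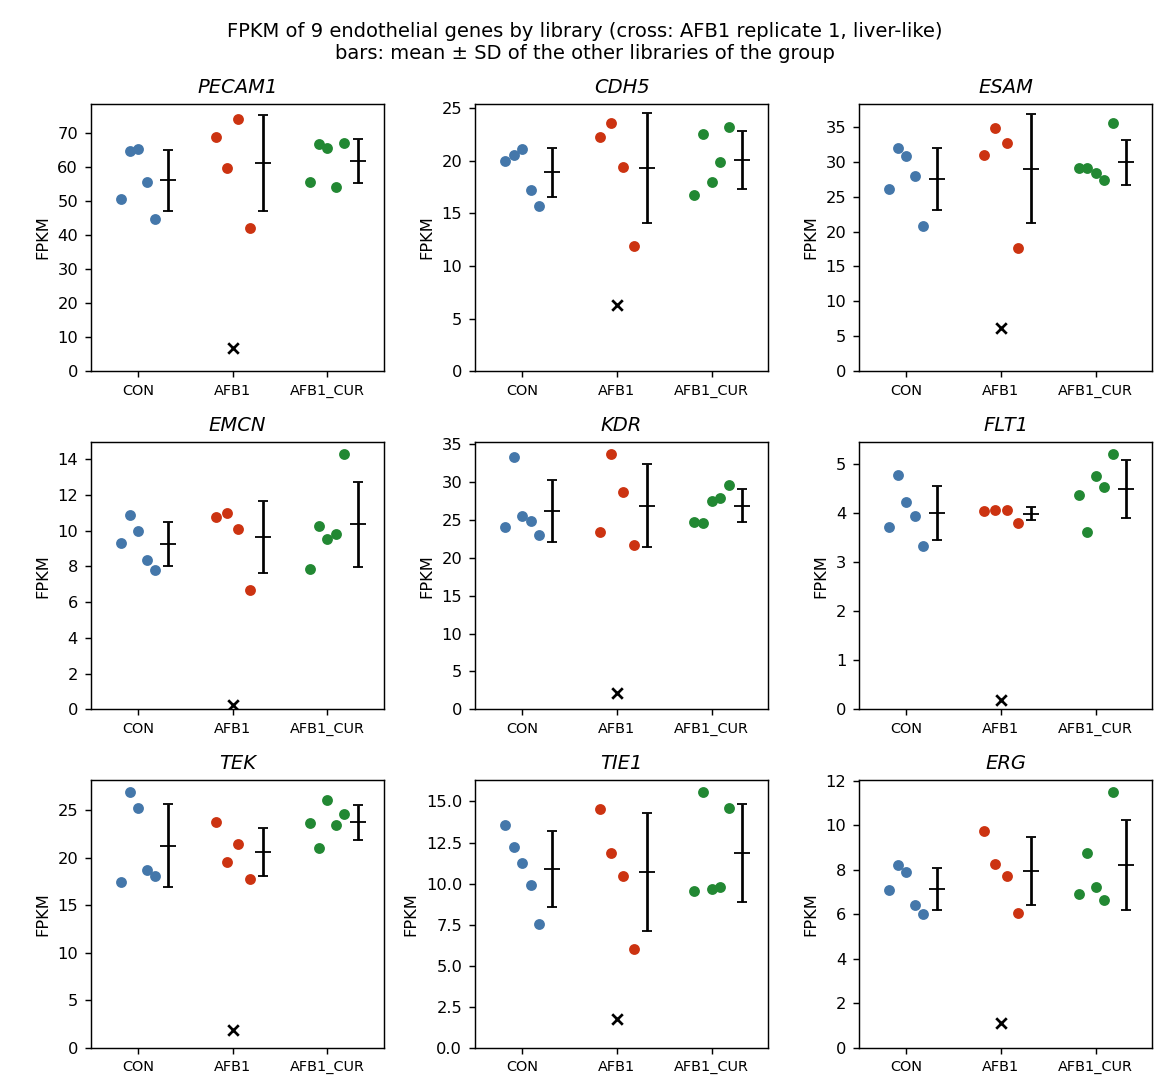
FPKM of each of the 9 endothelial genes (vertical axes, from 0) in each library, by group. Dots are libraries, bars are the mean ± SD of the group without AFB1 replicate 1, and the cross is AFB1 replicate 1, which lies below the other 14 libraries for 9 of 9 genes.

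The junction and surface genes come first. PECAM1, an adhesion molecule that leukocytes and platelets also carry, lies on chromosome 11 (48252140 to 48351567, minus strand). Its FPKM was 50.6, 64.7, 65.3, 55.7 and 44.8 in CON replicates 1 to 5, 68.96, 59.8, 74.2 and 42.1 in AFB1 replicates 2 to 5, and 55.6, 66.8, 65.6, 54.2 and 67.2 in AFB1_CUR replicates 1 to 5. The 3 groups overlapped, and the highest and the lowest of the 14 values were both in the AFB1 group. The gene MILR1 overlaps it on the opposite strand and reached at most 5.14 FPKM. CDH5, the cadherin of endothelial adherens junctions (chromosome 14, 33698838 to 33736330, plus strand), had 20, 20.5, 21.2, 17.2 and 15.7 FPKM in CON, 22.3, 23.6, 19.4 and 11.9 in AFB1, and 16.7, 22.5, 18, 19.9 and 23.2 in AFB1_CUR, in the same order of replicates. As for PECAM1, AFB1 held both extremes, with replicate 5 lowest and replicate 3 highest.

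ESAM, an adhesion molecule of endothelial tight junctions (chromosome 21, 25683565 to 25692179, minus strand), had 26.1, 31.9, 30.9, 27.9 and 20.7 FPKM in CON, 30.9, 34.9, 32.7 and 17.6 in AFB1, and 29.1, 29.1, 28.4, 27.4 and 35.6 in AFB1_CUR. In the AFB1_CUR group, 4 libraries lay within 27.4 to 29.1 and replicate 5 lay above them. EMCN (chromosome 6, 24532041 to 24665809, plus strand) had 9.30, 10.9, 9.96, 8.34 and 7.79 FPKM in CON, 10.8, 11.0, 10.1 and 6.68 in AFB1, and 7.86, 10.3, 9.52, 9.82 and 14.3 in AFB1_CUR. Its highest value was again in AFB1_CUR replicate 5 and its lowest in AFB1 replicate 5, with the groups overlapping.

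The VEGF receptors follow. KDR, which carries the main VEGF signal in endothelium (chromosome 6, 71265734 to 71315329, minus strand), had 24.01, 33.3, 25.5, 24.9 and 23.0 FPKM in CON, 23.4, 33.7, 28.7 and 21.6 in AFB1, and 24.7, 24.7, 27.5, 27.9 and 29.7 in AFB1_CUR. CON replicate 2 and AFB1 replicate 3 were the highest. FLT1 (chromosome 10, 31895803 to 32104643, plus strand) had 3.73, 4.78, 4.24, 3.95 and 3.34 FPKM in CON, 4.04, 4.07, 4.06 and 3.81 in AFB1, and 4.37, 3.61, 4.75, 4.54 and 5.21 in AFB1_CUR. The 4 AFB1 libraries lay within the range of the CON group. In FPKM, KDR exceeded FLT1 6.39 ± 0.750 times on average (SD, n = 14), with a range of 5.65 to 8.29. The CON, AFB1 and AFB1_CUR means of this ratio were 6.52 ± 0.402, 6.70 ± 1.23 and 6.02 ± 0.489. The gap was smaller in reads, with 15888 for KDR and 6400 for FLT1 in CON replicate 1, so its size depends on transcript length.

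The angiopoietin receptor TEK (chromosome 2, 95836542 to 95935595, plus strand) had 17.5, 26.9, 25.2, 18.8 and 18.1 FPKM in CON, 23.7, 19.5, 21.4 and 17.8 in AFB1, and 23.7, 21.1, 26.1, 23.4 and 24.6 in AFB1_CUR. The AFB1_CUR values lay inside the CON range. The loci LOC101110567 and LOC121818663 overlap TEK and reached at most 0.924 FPKM. TIE1 (chromosome 1, 17981634 to 18001753, plus strand) had 13.6, 12.2, 11.2, 9.88 and 7.55 FPKM in CON, 14.5, 11.9, 10.4 and 5.99 in AFB1, and 9.56, 15.6, 9.65, 9.81 and 14.6 in AFB1_CUR. It spread the most of the 9 genes, and its groups overlapped. The ratio of TEK to TIE1 therefore ranged from 1.29 in CON replicate 1 to 2.98 in AFB1 replicate 5, with means of 2.01 ± 0.441, 2.08 ± 0.631 and 2.12 ± 0.576 in CON, AFB1 and AFB1_CUR.

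The transcription factor ERG (chromosome 1, 271290181 to 271611751, minus strand) had 7.11, 8.21, 7.90, 6.39 and 6.02 FPKM in CON, 9.76, 8.26, 7.73 and 6.04 in AFB1, and 6.92, 8.74, 7.24, 6.62 and 11.5 in AFB1_CUR. AFB1_CUR replicate 5 was the highest and CON replicate 5 the lowest, next to AFB1 replicate 5. Within groups, the SD of log2(FPKM + 1) ran from 0.135 for FLT1 to 0.369 for TIE1. Its median over the 9 genes was 0.249, against 0.235 over all tested genes.

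None of the 9 genes passed the test between AFB1 and CON. In a quasi-likelihood test with edgeR, fitted to 14 libraries, the log2 fold change of AFB1 against CON was 0.11 (SE 0.14) for PECAM1, 0.01 (0.15) for CDH5, 0.06 (0.16) for ESAM, 0.05 (0.15) for EMCN, 0.04 (0.14) for KDR and -0.00383 (0.13) for FLT1. For TEK it was -0.05 (0.14), for TIE1 -0.05 (0.21) and for ERG 0.14 (0.15). Adjusted over all 13162 tested genes, the smallest p of the 9 genes was 0.965, for ERG. Following the screening rule of the study's methods, a gene was called where it changed by more than 1.5 times with p below 0.05 before adjustment, and 0 of the 9 genes were called, where 1.76% of all tested genes were. After Benjamini-Hochberg adjustment edgeR called 0 of all genes, with 664 at an unadjusted p under 0.05. DESeq2 called 17 after adjustment.

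In the fit of 14 libraries, the 95% intervals of the 9 log2 fold changes lay between -0.495 and 0.46, a fold of 0.709 to 1.38. A change of 1.5 times lay outside each of these intervals. The AFB1 value was higher for 6 genes and lower for 3, with a median of 0.0375 against 0.0156 over all tested genes. Beside them, 8 of 8 proximal tubule genes were lower in AFB1 (median -0.372) and 6 of 6 leukocyte and platelet genes higher (0.769). None of them was called, and their part was not tested. Over 9 leukocyte and platelet markers, the mean log2(FPKM + 1) was 3.364 in AFB1 replicate 2. It was 1.531 to 2.24 in AFB1 replicates 3 to 5, inside the CON range of 1.194 to 2.413, so that lean rested largely on 1 library. The FPKM ranges of the AFB1 and CON groups did not separate for any member, while 1.54% of tested genes separated. With the library AFB1 replicate 1 included, all 9 values were negative, 6 of them with a changed sign, from -0.31 for TEK to -0.0950 for ERG with a median of -0.235. Even so 0 of the 9 genes were called, against 4.84% of tested genes, and the smallest unadjusted p was 0.394, for TIE1 (edgeR). The 95% intervals of this fit spanned -1.35 to 0.833, a fold of 0.393 to 1.78, so a change of 1.5 times did not lie outside each of them.

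None passed it between AFB1_CUR and AFB1 either. Against AFB1, the log2 fold change in AFB1_CUR ranged from -0.06 (SE 0.14) for KDR to 0.15 (SE 0.14) for TEK, and it was 0.11 (SE 0.13) for FLT1 and 0.09 (SE 0.21) for TIE1. The other 5 genes lay between -0.0469 for PECAM1 and 0.0425 for EMCN. The AFB1_CUR value was higher for 5 genes and lower for 4, with a median of 0.00139 against 0.000323 over all tested genes. Here 6 of 6 fibroblast genes were higher in AFB1_CUR (median 0.735, 1 called) and 13 of 14 hepatocyte genes lower (-0.345, 1 called). Their part was not tested. AFB1_CUR replicate 2 carried much of the fibroblast lean, with COL1A2 at 128 FPKM. Its mean log2(FPKM + 1) of fibroblast markers was 6.061, against 4.321 to 4.84 in the rest of its group and 3.684 to 5.242 in AFB1. The 95% intervals of the 9 genes spanned -0.361 to 0.532, a fold of 0.779 to 1.45. None of the 9 genes was called, against 0.935% of tested genes, and each adjusted p was 0.99999 (edgeR). After adjustment edgeR called 0 of all genes here, with 303 at an unadjusted p under 0.05, and DESeq2 called 3. With AFB1 replicate 1 included, all 9 values were positive, between 0.15 for CDH5 and 0.42 for TEK. Again 0 of the 9 genes were called, against 3.98% of tested genes, and the intervals spanned -0.74 to 1.44, a fold of 0.599 to 2.72. Between these groups, 0.676% of tested genes and 0 of the 9 had separate FPKM ranges.

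Against CON, the AFB1_CUR group had the higher value for 8 of 9 genes, by 0.13 (SE 0.14) on the log2 scale for ERG, 0.11 (SE 0.12) for FLT1 and 0.10 (SE 0.13) for TEK. KDR was at -0.02 (SE 0.13), and the remaining 5 genes were between 0.00887 for CDH5 and 0.0887 for EMCN. The median was 0.066 against -0.00289 over all tested genes. Markers of other cells also leaned one way here, with 8 of 8 proximal tubule genes lower (median -0.267), 6 of 6 fibroblast genes higher (0.599) and 5 of 6 leukocyte and platelet genes higher (0.799). None of them was called, and their part in the endothelial values was not tested. AFB1_CUR replicate 2 carried much of the last 2 leans. Its mean log2(FPKM + 1) of fibroblast markers was 6.061, against 4.321 to 4.84 in the rest of its group and 3.964 to 4.917 in CON. For leukocyte and platelet markers it was 3.659, against 1.9 to 2.242 and 1.194 to 2.413. The 95% intervals of the 9 genes lay within -0.383 and 0.455, a fold of 0.767 to 1.37. None of the 9 was called, against 1.63% of tested genes, and the smallest adjusted p was 0.871, for ERG (edgeR). Over all genes edgeR called 0 after adjustment, with 723 at an unadjusted p under 0.05, and DESeq2 called 1. Fitted with all 15 libraries, the 9 values ran from -0.0159 for KDR to 0.13 for ERG, with 0.993% of tested genes called. Their intervals then spanned -0.996 to 1.18, a fold of 0.501 to 2.27. The ranges of the groups separated for 0.722% of tested genes and 0 of the 9. The 3 comparisons share their groups, so they are not independent.

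**Figure D2:**
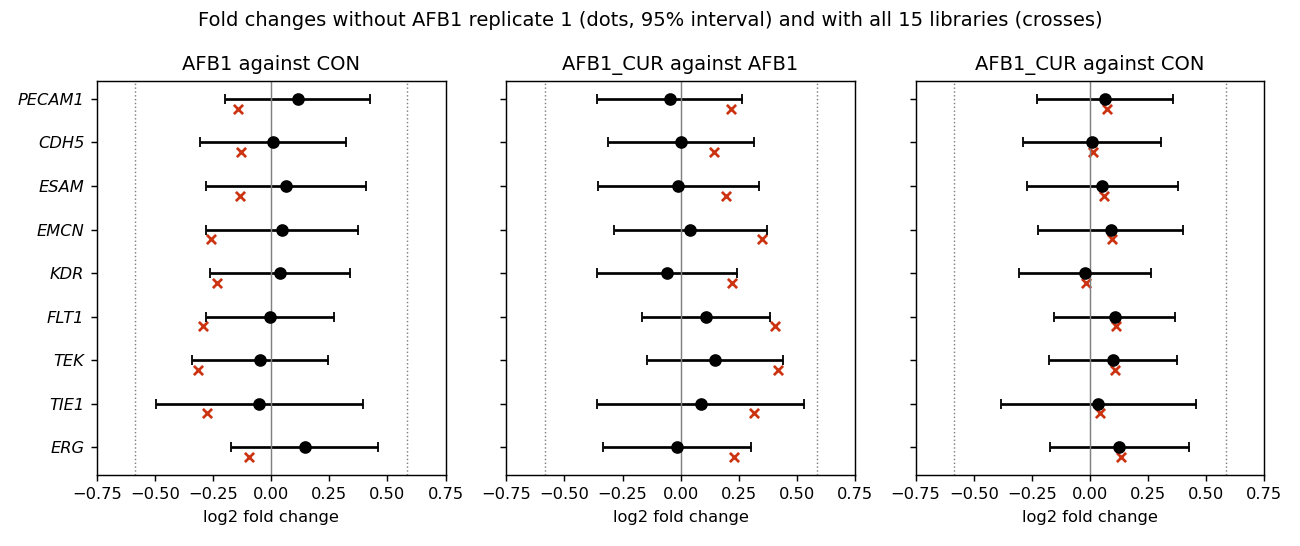
Log2 fold change (horizontal axes) of each endothelial gene in the 3 comparisons, with 95% intervals, from the fit of 14 libraries (dots) and of 15 libraries (crosses). Dotted lines mark a fold of 1.5, and each interval of the 14-library fit crosses 0 and stays inside them.

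Single libraries lay further from the mean than the groups lay from each other. AFB1 replicate 5 had the lowest FPKM of the 4 AFB1 libraries for 9 of 9 genes, and CON replicate 5 the lowest of its group for 8 of 9. On the log2 scale their mean distance from the 14-library mean was -0.496 and -0.363. AFB1_CUR replicate 5 had the highest FPKM of its group for 7 of 9 genes, at 0.319. On TMM-normalised counts, which allow for differences in RNA composition, these distances were -0.333, -0.322 and 0.256, and AFB1 replicate 5 was lowest in its group for 6 of 9 genes. The replicate numbers of different groups do not mark shared animals.

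Markers of other kidney cells moved with these libraries. The mean proximal tubule level, over 8 of 9 listed markers found in the file, was 8.236 in CON replicate 5 and 7.969 in AFB1 replicate 5, the 2 highest of the 14, and 6.469 to 7.841 in the rest. Their levels over the 9 endothelial genes were 3.78 and 3.656, against 3.969 to 4.408 in the rest. By group, the proximal tubule level was 7.039 to 8.236 in CON, 6.535 to 7.969 in AFB1 and 6.469 to 7.841 in AFB1_CUR. The podocyte level, over 6 markers, was lowest in the same libraries, at 3.725 in AFB1 replicate 5 and 4.126 in CON replicate 5, with 4.135 to 4.821 elsewhere. Their part in the levels of the endothelial genes was not tested. Without both libraries, 0 of the 9 genes were called in each comparison, where 2.64%, 1.95% and 1.71% of tested genes were called in AFB1 against CON, AFB1_CUR against AFB1 and AFB1_CUR against CON.

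PECAM1 is also a leukocyte and platelet gene, so 9 such markers were read beside it. Their mean log2(FPKM + 1) was 3.364 in AFB1 replicate 2 and 3.659 in AFB1_CUR replicate 2, and 1.194 to 2.413 in the other 12 kidney libraries. CD79A, a B cell receptor component, reached 27.6 and 62.6 FPKM in those libraries, against 0.536 to 5.72. Of the platelet genes in this list, ITGA2B ranged from 1.05 to 5.55 FPKM and was highest in AFB1 replicate 2, GP1BB ranged from 0.105 to 0.781 and GP9 was at most 0.119. The part of leukocytes and platelets in the PECAM1 level was not tested. PECAM1 was 68.96 and 66.8 FPKM in the same libraries, below the 74.2 of AFB1 replicate 4, and without both of them 0 of the 9 genes were called, where 1.94%, 1.60% and 0.890% of tested genes were called in the 3 comparisons in the same order.

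**Figure D3:**
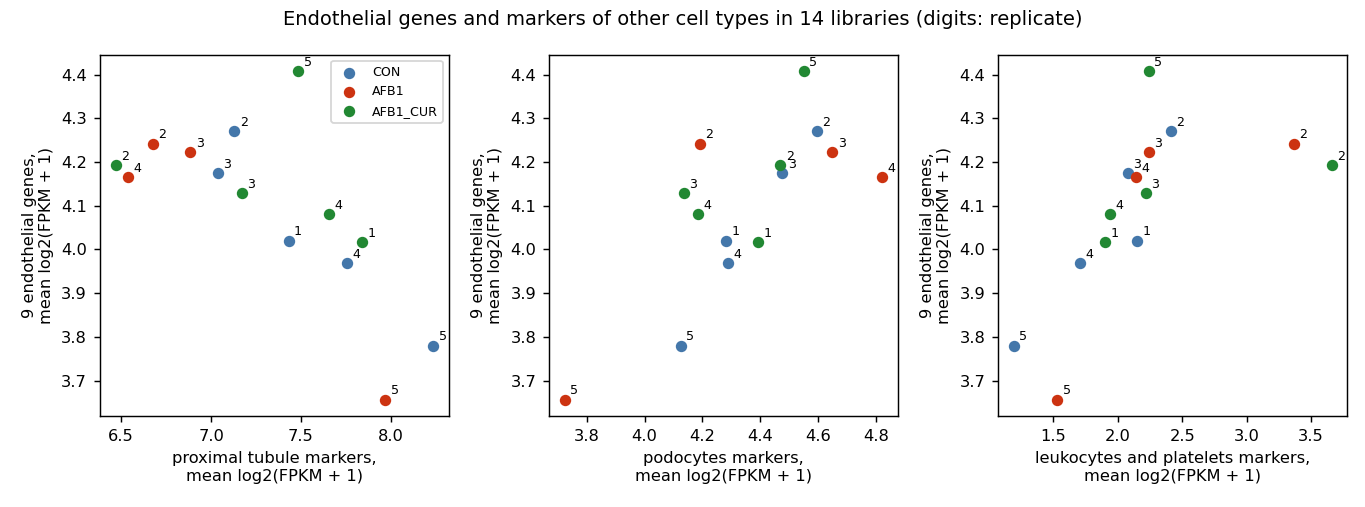
Mean log2(FPKM + 1) of the 9 endothelial genes (vertical axes) against that of proximal tubule, podocyte and leukocyte and platelet markers (horizontal axes) in 14 libraries, coloured by group and numbered by replicate. CON 5 and AFB1 5 sit lowest on the vertical axis and furthest right for proximal tubule markers.

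The 9 genes varied in the same direction across libraries. After each group's mean was subtracted, Pearson's r of log2(FPKM + 1) over the 14 libraries was positive for 36 of 36 pairs, from 0.185 to 0.91, with a median of 0.685. The median over all pairs of tested genes was 0.0985, and 6.66% of those pairs were above 0.685. CDH5 with TIE1 (0.91) and EMCN with ERG (0.908) were the closest pairs. FLT1 was closest to TEK (0.755), and neither followed TIE1 closely, with 0.185 for FLT1 and 0.295 for TEK. These values describe 14 points that share a library each, and so share its depth, cell makeup and scaling.

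**Figure D4:**
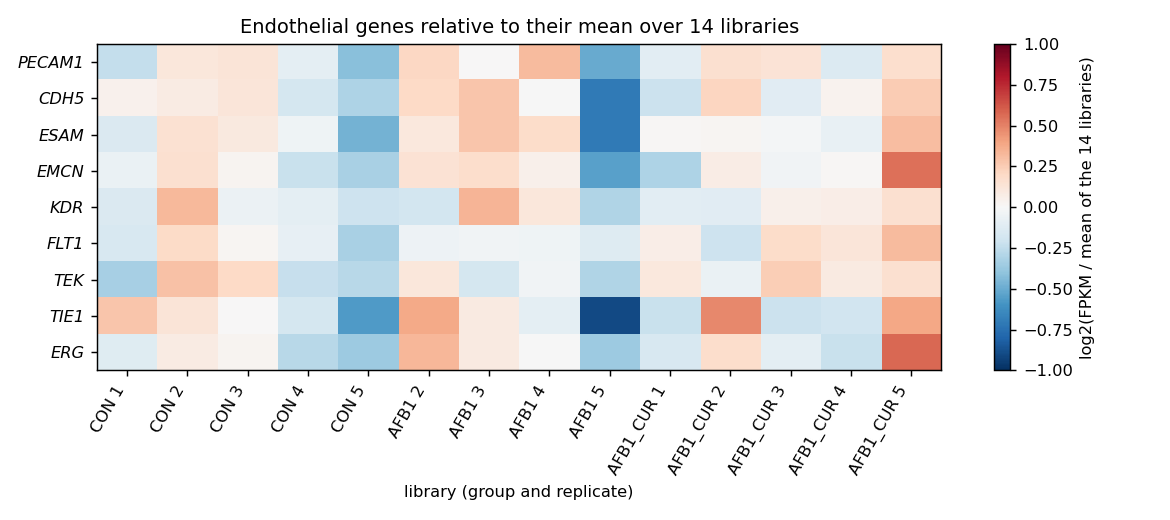
Log2 ratio of each endothelial gene's FPKM to its mean over the 14 libraries (colour), with genes in rows and libraries in columns by group and replicate. The columns CON 5 and AFB1 5 are blue and AFB1_CUR 5 is red for all 9 genes.

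Among the 13153 other tested genes, the 10 whose log2(FPKM + 1) was most like the mean of the 9 standardised genes had r of 0.897 to 0.926 over the 14 libraries, with no subtraction of group means. They were ABCA7 (0.926), LOC101107641 (0.924), USB1 (0.922), PATZ1 (0.914), NCK2 (0.904), MYO1C (0.901), SLC4A3 (0.899), SYNPO (0.899), AGTR1 (0.897) and SEMA4C (0.897). SYNPO, the podocyte actin protein synaptopodin, was the only one of these 10 in the marker lists. In all, 178 genes had r above 0.8. The median r was 0.722 for 17 other pan-endothelial genes, 0.699 for 5 glomerular endothelial genes, 0.686 for 14 endothelial transcription factors and 0.674 for 10 other receptors. It was lower for the 3 activation genes (0.589), 9 arterial genes (0.548), 5 lymphatic and 5 liver sinusoidal genes (0.457 each) and 2 venous genes (0.409). For the 6 tested genes of the VEGF and angiopoietin ligand list, which also held APLN, it was 0.128. Lists of other cell types reached 0.661 for 6 podocyte genes, 0.625 for 6 leukocyte and platelet genes, 0.587 for 8 mural genes and 0.479 for 6 fibroblast genes, against 0.342 for 9 loop and collecting duct genes, -0.112 for 14 hepatocyte genes, -0.586 for 8 proximal tubule genes and 0.258 for all tested genes.

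Ligands of these receptors were read from the same fit, in a list that also held the apelin gene APLN. The tested ligands counted here include APLN. VEGFA, the ligand of KDR and FLT1, had 121 ± 17.9 FPKM in CON (SD, n = 5), 108 ± 23.1 in AFB1 (n = 4) and 108 ± 15.3 in AFB1_CUR (n = 5). VEGFB, which binds FLT1, had 43.2 ± 8.06, 36.2 ± 5.81 and 40.5 ± 6.29. None of the 6 tested ligands of 9 listed was called in any comparison, where 0.935% to 1.76% of all tested genes were, with 3 higher and 3 lower in AFB1 than in CON. The 10 other receptors and co-receptors, led by the TGF-beta co-receptor ENG (66.8 ± 16.8 FPKM in CON) and the adrenomedullin receptor component RAMP2 (44.6 ± 10.3), also had 0 called genes against the same shares, and counts this small do not set these lists apart. In AFB1, 4 of them were higher than in CON and 6 lower.

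The ligands, receptors and 7 further endothelial lists held 82 genes, of which 71 were tested. In AFB1 against CON, 42 were higher and 29 lower, and 2 were called higher, where 1.76% of all tested genes were called in either direction. In AFB1_CUR against AFB1, 37 were higher and 34 lower with 0 called, against 0.935% of all tested genes. In AFB1_CUR against CON, 46 were higher and 25 lower with 2 called higher, against 1.63% of all tested genes. These counts are too small to set the lists apart from other genes. The medians of the log2 fold changes were 0.0773, 0.0108 and 0.0873 in the 3 comparisons.

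None of the leading genes of these lists was called in the fit of 14 libraries, where 0.935% to 1.76% of all tested genes were. So few genes cannot be set apart from others by this. PLVAP, the protein of fenestral diaphragms, had 172 ± 26.6, 172 ± 33.5 and 175 ± 28.2 FPKM in CON, AFB1 and AFB1_CUR, and CD34, a surface sialomucin, had 24.7 ± 3.61, 24.8 ± 9.16 and 23.8 ± 4.11. The transcription factors ETS1 (17.1 ± 3.95 FPKM in CON) and KLF2 (15.5 ± 4.70) were at log2 fold changes of 0.26 and -0.26 in AFB1 against CON. Of the glomerular endothelial list, PLAT, tissue plasminogen activator, had 89.5 ± 23.96 FPKM in CON, and TBX3, a transcription factor, had 10.7 ± 3.04. The arterial list was led by SEMA3G at 104 ± 22.5 FPKM and the receptor NOTCH4 at 11.1 ± 2.31, and the venous list by NR2F2 at 20.97 ± 3.35 and EPHB4 at 20.6 ± 1.80. CCL21, a chemokine of lymphatic endothelium, had 25.8 ± 7.64 FPKM in CON and the lymphatic gene PDPN, which podocytes also make, 9.03 ± 2.23. ICAM1, induced on activated endothelium, had 18.8 ± 5.36 FPKM in CON and 24.9 ± 8.13 in AFB1 (log2 fold change 0.39, unadjusted p = 0.0717, edgeR). With all 15 libraries ICAM1 was called, at 0.61 (unadjusted p = 0.0200, edgeR). ESM1 had 2.92 ± 1.56 in CON.

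The called genes were few and low. HEY1, a target of Notch signalling, had 1.01, 1.46, 0.802, 0.805 and 1.18 FPKM in CON, 3.12, 1.65, 1.88 and 0.920 in AFB1 replicates 2 to 5, and 1.01, 1.74, 1.61, 1.43 and 1.48 in AFB1_CUR. Its log2 fold change in AFB1 against CON was 0.82 (SE 0.27, unadjusted p = 0.00937, adjusted p = 0.957, edgeR), and without AFB1 replicate 2 it was 0.52 (unadjusted p = 0.0600, edgeR) and no longer called. MMRN1, a lymphatic endothelial and platelet protein, had 1.03, 0.816, 0.880, 0.765 and 1.08 FPKM in CON, 4.15, 1.01, 1.67 and 1.18 in AFB1, and 1.69, 2.62, 1.06, 1.48 and 2.69 in AFB1_CUR. It was higher than in CON by 1.09 (SE 0.35) in AFB1 and by 0.97 (SE 0.34) in AFB1_CUR on the log2 scale, at unadjusted p of 0.00851 and 0.0128 and adjusted p of 0.957 and 0.823 (edgeR). Without AFB1 replicate 2, the value in AFB1 was 0.53 (unadjusted p = 0.0782, edgeR). MMRN1 was below 1 FPKM in CON replicates 2, 3 and 4 and above it in each AFB1 and AFB1_CUR kidney library. It thus passed the filter on low values largely through the groups where it was high, and its calls are no support for a difference. With all 15 libraries HEY1 was still called in AFB1, at 1.11, and HHEX and PROX1 were called too, at 1.62 and 1.65. HHEX and PROX1 had 14.8 and 12.9 FPKM in AFB1 replicate 1, above the other 14 libraries. That library had a hepatocyte marker level of 10.63, and the part of liver cells in its HHEX and PROX1 values was not tested. In the fit of 15 libraries HEY1 and PROX1 were also called lower in AFB1_CUR than in AFB1, at -0.71 and -1.65. MMRN1 was not called there against CON in AFB1 or AFB1_CUR, at 0.79 and 0.97 (unadjusted p of 0.198 and 0.118, edgeR). SELP, the adhesion molecule P-selectin of endothelium and platelets, was 0.86 higher in AFB1_CUR than in CON (SE 0.37, unadjusted p = 0.0361, adjusted p = 0.823, edgeR), and its call was lost without any of CON replicates 1, 4 and 5 or AFB1_CUR replicates 1, 2 and 5, at 0.72 to 0.86. SELP likewise passed the filter on low values through AFB1_CUR, with 4 libraries at 1 FPKM or more there and 2 in the other groups, and its call is no support for a difference. Both replicate 2 libraries carried the high leukocyte levels given above, whose part in these values was not tested.

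Markers of the other cell types give the setting of these values. In CON, the leading genes were SLC5A12 (400 ± 171 FPKM) and SLC13A3 (376 ± 75.3) of the proximal tubule, UMOD (827 ± 354) and AQP2 (370 ± 138) of the loop and collecting duct, PODXL (70.3 ± 8.09) of podocytes, and ACTA2 (202 ± 66.6) and TAGLN (108 ± 37.0) of mural cells. The leukocyte genes CD3E and LYZ had 8.61 ± 3.23 and 8.21 ± 5.48 FPKM, the adipocyte genes FABP4 and PLIN1 2.34 ± 1.43 and 0.343 ± 0.0684, and COL1A2 of fibroblasts 25.9 ± 8.33. The liver genes F2 and TF had 70.1 ± 27.2 and 49.8 ± 15.7 FPKM in CON. Among these 8 lists, LUM, 1 of 6 tested fibroblast genes, was called higher in AFB1_CUR than in AFB1. ALB, 1 of 14 tested hepatocyte genes, was called lower. In that comparison 0.935% of all tested genes were called, and counts this small do not set the lists apart. LUM was 43.2, 40.5, 29.4 and 24.2 FPKM in AFB1 replicates 2 to 5 and 59.3, 59.3, 47.8, 57.6 and 71.2 in AFB1_CUR (log2 fold change 0.73, unadjusted p = 0.0312, adjusted p = 0.99999, edgeR). The call of LUM was lost without AFB1 replicate 4 or 5 or AFB1_CUR replicate 1 or 5, at 0.63 to 0.71. ALB was 23.9, 11.8, 0.215 and 0.0443 FPKM in AFB1 and at most 1.08 in AFB1_CUR (log2 fold change -3.75, unadjusted p = 0.0143, edgeR). Without AFB1 replicate 2 it was -2.63 and no longer called (unadjusted p = 0.0683, edgeR).

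In AFB1 replicate 1 the endothelial genes were not lower by the same factor. EMCN was 0.257 FPKM there against a median of 9.89 in the 14 kidney libraries, which is 38.4 times lower, and FLT1 was 0.192 FPKM, 21.2 times lower. TEK (1.902 FPKM) was 11.8 times lower and KDR (2.19 FPKM) 11.5 times. At the other end, CDH5 was 6.27 FPKM, 3.18 times lower, and ESAM 6.25 FPKM, 4.66 times lower. PECAM1 (6.68 FPKM), ERG (1.10 FPKM) and TIE1 (1.76 FPKM) were 9.32, 6.79 and 6.14 times lower. This library had 130 reads for EMCN and 1565 for CDH5, and it has no replicate.

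The ratios between the genes differed there as well. KDR exceeded FLT1 11.4 times, outside the 5.65 to 8.29 of the kidneys, and PECAM1 exceeded CDH5 1.07 times, against 2.53 to 3.83. TEK to TIE1 was 1.08, just below the lowest kidney value of 1.29. Of the 82 ligand, receptor and other endothelial genes listed, 80 were in the file, of which 67 were below the 14 kidneys. HHEX, PROX1 and RELN, 3 of the 80, were above them, and the part of liver cells in these values was not tested. SEMA3G (225 times lower, 0.405 FPKM), MECOM (52.7 times) and PDPN (44.8 times) were further below than EMCN, and 3 genes were listed at 0. CD34 was 28.1 times lower and PLVAP 25.8 times, whereas ENG was 4.93 times lower and EPHB4 1.42 times.

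Genes of the sinusoidal endothelium of the liver were read beside them. Of 9 listed genes, 7 were in the file. The scavenger receptor STAB2 was 3.20 FPKM in AFB1 replicate 1 against 0.0296 to 0.247 in the kidneys, OIT3 was 11.7 against 0.394 to 2.36, and the ficolin FCN3 was 1.02 against 0.0954 to 0.455. LYVE1, the hyaluronan receptor, was 3.00 FPKM and FCGR2B, an Fc receptor, 2.16, both within the kidney range. STAB1 at 6.16 FPKM was below 13 of 14 kidneys, and the clotting factor gene F8 at 1.40 FPKM below 14 of 14. Among kidneys, FCGR2B was called higher in AFB1_CUR than in CON (log2 fold change 1.30, unadjusted p = 0.0304, adjusted p = 0.823, edgeR), with 5.25 FPKM in AFB1_CUR replicate 2, and the call was lost without that library (0.79, unadjusted p = 0.135, edgeR), and without CON replicate 1, 4 or 5, at 1.11 to 1.23. With all 15 libraries it was not called either (1.31, unadjusted p = 0.0586, edgeR). FCGR2B reached 1 FPKM in 5 AFB1_CUR libraries and in only 2 of the other kidneys, so it passed the filter on low values through the group where it was high, and its call is no support for a difference. The mean log2(FPKM + 1) of the 7 genes was 2.073, against 0.8777 to 1.843.

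**Figure D5:**
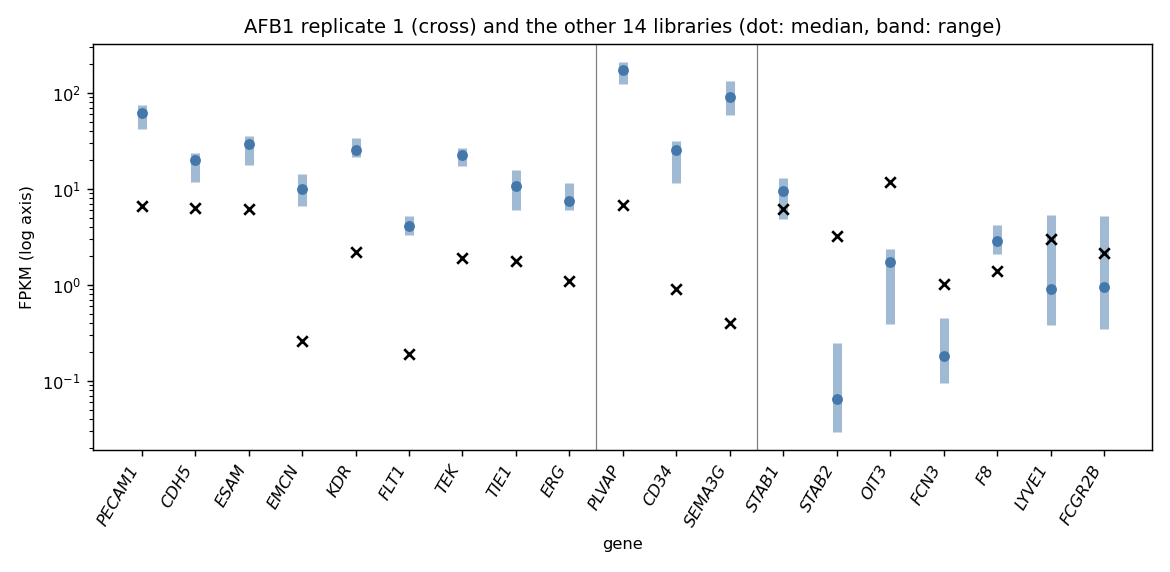
FPKM (vertical log axis) of the 9 endothelial genes, of PLVAP, CD34 and SEMA3G, and of 7 genes of liver sinusoidal endothelium, in AFB1 replicate 1 (cross) and the other 14 libraries (dot for the median, band for the range). EMCN and FLT1 lie furthest below their bands among the 9, and STAB2, OIT3 and FCN3 lie above theirs.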

How the data were processed

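Kidney RNA of RIN above 7 was selected with oligo(dT), and strand-marked libraries were sequenced as paired reads. Reads were trimmed, aligned with HISAT2 2.2.1 and assembled with StringTie 2.1.6, as the submitters' processing notes list. The authors deposited read counts and FPKM for each gene and library. For the genome build and the strand setting of the counting, the sources used here give nothing. Gene coordinates are those of the deposited table, and they equal ARS-UI_Ramb_v3.0 for 24831 of 24930 genes matched by symbol. Libraries were grouped by their titles, because the treatment label counts upward within groups.

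Genes that reached an FPKM of 1 in 5 or more libraries were tested on the counts with edgeR 4.0.16 (R 4.3.3), with TMM scaling and quasi-likelihood. The model had 3 group means and was also tested on simulated data. Called means a change by more than 1.5 times with p below 0.05 before adjustment. Levels used log2(FPKM + 1). DESeq2 1.42.0 and limma 3.58.1 were alternatives. The genes, lists and the setting apart of AFB1 replicate 1 were chosen with earlier results of these data known. Named genes were the 9 genes, the 2 highest in CON of each list, called genes and the 10 most like the 9. Other genes, such as CD79A, platelet and liver sinusoidal genes, kidney genes at 0 in AFB1 replicate 1, RELN and MECOM, were named after their values were seen. A leading gene of the podocyte list is not reported here.

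The endothelial lists were ligands, receptors, pan-endothelial, transcription factor, glomerular, arterial, venous, lymphatic, activation and liver sinusoidal genes. There were 8 marker lists of other cell types. ICAM2, VCAM1 and PF4 were among the listed genes not analysed here.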

Additional observations from a re-analysis of the deposited data

Results flagged for a closer look

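Outlying libraries were looked for in 60 groups of values, the 9 endothelial genes and the called genes in each group, and 9 were found, where chance gives about 1 in 20 groups. That share is no measure of these 9, since 3 are AFB1 replicate 1, which was already known to stand apart, SELP counts in both forms of the AFB1 group, and the called genes were chosen by their values. ESAM was set apart by AFB1_CUR replicate 5, at 35.6 FPKM and the highest of its group, and KDR by CON replicate 2, at 33.3 FPKM and the highest of the CON group. FLT1 had its lowest AFB1 value in replicate 5, at 3.81 FPKM, below 3 libraries that lay close together. With AFB1 replicate 1 in the group, its FLT1 value of 0.192 FPKM and its TEK value of 1.9 FPKM stood apart as the lowest, and its ALB value of 25700 FPKM as the highest. SELP was 1.85 FPKM in AFB1 replicate 2, apart from the other AFB1 libraries with and without replicate 1, and FCGR2B was 5.25 FPKM in AFB1_CUR replicate 2.

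In the library AFB1 replicate 1, which the comparisons of 14 libraries leave out, 5 genes of liver sinusoidal endothelium were above each of the CON libraries. STAB2 was 3.20 FPKM, OIT3 11.7, FCN3 1.02, LYVE1 3.00 and FCGR2B 2.16. For LYVE1 and FCGR2B, 1 kidney library of another group was higher.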

How the results depend on the processing

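None of the 9 endothelial genes was called in any of the 75 alternative fits, in which 0.608% to 4.84% of tested genes were called. Signs changed in many of them, and the values with a changed sign are given here. The smallest unadjusted p of any of the 9 genes was 0.0365, for FLT1 without AFB1_CUR replicate 2. With 15 libraries, AFB1 against CON gave 639 called genes and a median of -0.235 over the 9 genes, with PECAM1 -0.143, CDH5 -0.131, ESAM -0.135, EMCN -0.257, KDR -0.235 and ERG -0.0950. AFB1_CUR against AFB1 gave 525 genes and a median of 0.228, with PECAM1 0.215, ESAM 0.194, KDR 0.219 and ERG 0.228, and AFB1_CUR against CON gave 131 genes.

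In the order AFB1 against CON, AFB1_CUR against AFB1 and AFB1_CUR against CON, the called genes were 867, 707 and 928 with no filter on low values, 529, 343 and 526 with filterByExpr, which tests more genes, and 105, 81 and 80 with limma on log2(FPKM + 1). limma on log2(FPKM + 0.1) called, for AFB1_CUR against AFB1, 78 higher and 56 lower genes, and edgeR 54 and 69. For AFB1 against CON, the signs that turned were FLT1 0.0117 (filterByExpr), 0.00318 (limma, +1) and 0.00560 (limma, +0.1), and CDH5 -0.00783 and -0.0103 (limma). For AFB1_CUR against AFB1, CDH5 was -0.000489 (filterByExpr) and -0.00382 (no filter). limma (+1, then +0.1) gave PECAM1 0.0393 and 0.0403, ESAM 0.0811 and 0.0853, KDR 0.0182 and 0.0193, and ERG 0.0326 and 0.0356. KDR against CON was 0.0474 and 0.0492.

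In alternatives chosen after seeing the data, leaving out both replicate 2 libraries (AFB1 and AFB1_CUR) gave 207 called genes between AFB1_CUR and AFB1 and 115 between AFB1_CUR and CON, with CDH5 -0.0254 and FLT1 0.0370 (AFB1 against CON), ESAM 0.0402 and ERG 0.0747 (AFB1_CUR against AFB1), and KDR 0.0546 and TIE1 -0.0201 (AFB1_CUR against CON). Leaving out both replicate 5 libraries (CON and AFB1) gave 255 called genes between AFB1_CUR and AFB1, with TIE1 0.0144 (AFB1 against CON), CDH5 -0.142, EMCN -0.0650 and TIE1 -0.0832 (AFB1_CUR against AFB1), and PECAM1 -0.00348, CDH5 -0.0487, ESAM -0.0314 and TIE1 -0.0687 (AFB1_CUR against CON). The cause of these changes was not tested.

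Leaving out 1 library at a time gave 204 to 454 called genes for AFB1 against CON, the highest without AFB1 replicate 5, 119 to 261 for AFB1_CUR against AFB1, the highest without AFB1 replicate 2, and 115 to 305 for AFB1_CUR against CON, the lowest without AFB1_CUR replicate 2. For AFB1 against CON the ranges were -0.0115 to 0.224 for PECAM1, -0.0884 to 0.151 for CDH5, -0.0225 to 0.211 for ESAM, -0.00754 to 0.154 for EMCN, -0.0679 to 0.128 for KDR, -0.0609 to 0.0383 for FLT1, -0.105 to 0.0234 for TEK and -0.190 to 0.120 for TIE1. For AFB1_CUR against AFB1 they were -0.158 to 0.0776 for PECAM1, -0.142 to 0.0973 for CDH5, -0.158 to 0.0735 for ESAM, -0.0939 to 0.110 for EMCN, -0.149 to 0.0464 for KDR, -0.0834 to 0.226 for TIE1 and -0.164 to 0.0557 for ERG. For AFB1_CUR against CON they were -0.00339 to 0.129 for PECAM1, -0.0486 to 0.0548 for CDH5, -0.0313 to 0.108 for ESAM, -0.0475 to 0.157 for EMCN, -0.0610 to 0.0510 for KDR, -0.0686 to 0.138 for TIE1 and -0.0200 to 0.179 for ERG.

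Whether libraries of the same replicate number share anything in their handling was not settled. Same-numbered libraries of different groups deviated with r of -0.309 to 0.599 over 13 pairs, with a median of 0.124 and 7 of them above 0.1. The replicate 2 pairs had r of 0.396 to 0.599, and CON replicate 5 with AFB1 replicate 5 had 0.378. Pairs of different number were not set beside them, so these values cannot decide it. With the replicate number as a block, 228, 150 and 282 genes were called, and CDH5 in AFB1 against CON was -0.0105 and ESAM in AFB1_CUR against AFB1 0.0251.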
